A study of Mus musculus with 6 samples.

Results

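Genes that set how blood clots and how fibrin is dissolved at the vessel wall were followed in brain endothelial cells of mice with a deletion of Rbpj, the nuclear partner that Notch needs to act on its target genes. They were F2r, F2rl1 and F2rl3 (protease-activated receptors), F3 (tissue factor), Tfpi, Thbd, Procr, Plat and Vwf, taken by gene symbol, and all 9 of 9 were found among 55450 genes. The mutant group had 3 libraries from pups with both Rbpj alleles floxed, and the control group had 3 libraries from pups with 1 floxed allele and 1 wild-type allele. Cdh5(PAC)-CreERT2, a Cre that needs tamoxifen and is expressed from the endothelial Cdh5 promoter, was present in both. Both also received 100 µg tamoxifen on postnatal days 1 and 2, were bred on mixed FVB/N and C57BL/6 backgrounds, and were sampled at postnatal day 7, although a further label field reads P0. The cells were taken fresh from digested brain on CD31 magnetic beads, and RNA of many pups of either sex was pooled. Whether the 3 libraries of a group come from separate pools is not stated, so p-values measure the spread between libraries, which may be technical.

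As background, tissue factor on cells outside the blood starts clotting by binding factor VII, and Tfpi blocks that complex. Thrombin, the product of the cascade, is bound on endothelium by thrombomodulin (Thbd), which turns it towards activating protein C, and the protein C receptor (Procr) presents protein C for this step. Protease-activated receptors are G protein-coupled receptors that are switched on when a protease cuts their outer end: thrombin cuts the products of F2r (PAR1) and F2rl3 (PAR4), while trypsin-like proteases and the tissue factor complex cut that of F2rl1 (PAR2). Plat encodes tissue plasminogen activator, which releases plasmin to dissolve fibrin, and Vwf encodes von Willebrand factor, which endothelium stores in Weibel-Palade bodies and which tethers platelets.

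Libraries held 75744913 to 82092461 estimated counts, where about 4 counts stand for 1 read pair. Expression is given as CPM, the usual unit of counts scaled to library size, and a gene is called higher or lower when its adjusted p in edgeR's quasi-likelihood test was under 0.05. Rbpj itself was at 47.9, 46.8 and 45.2 CPM in mutant libraries, against 54.3, 54.3 and 53.8 CPM in control libraries (log2 fold change -0.21 ± 0.042 SE, adjusted p = 0.0129). This is a weak check of the deletion, as the count is of the whole gene and was not split by exon. Control pups also carried the Cre and 1 floxed allele, and cells of other types were present. The part of each in the level of Rbpj was not tested. The adjusted p of Rbpj was 0.051 to 0.0571 without mutant library 2, control library 1 or control library 2. All 10 endothelial markers were detected, 3 of them called higher and 2 lower, with a summed level of 12420 to 13440 CPM in mutant and 12150 to 12490 CPM in control libraries. Markers of other cells were present too. The choroid plexus list summed to 3425 to 4454 CPM in mutant and 5061 to 5507 CPM in control libraries. Most of this was Ttr, at 3983 CPM on average in mutant and 5168 CPM in control libraries. Ttr was not called (adjusted p = 0.0882), and 1 of the 5 choroid plexus markers, Folr1, was called lower. The erythroid list (7 of 8 symbols found) summed to 4665 to 4961 CPM in mutant and 6974 to 7179 CPM in control libraries. Mutant library 3 stood apart on the second principal component (18.8% of variance), with a score of -55.6, where the mutant group's other scores were 31.2 and 26.2 and those of control libraries -11.1 to 14.9. Values without it are given beside each called member. In such pooled cell preparations, fewer cells of a type and less RNA per cell cannot be told apart.

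The protease-activated receptors moved in opposite directions, and F2rl1 and F2rl3 held the largest changes among the 9 genes. F2rl1 fell to 0.296 of its control level and F2rl3 rose 2.38-fold, while F2r, by far the most abundant of the receptors, rose 1.11-fold. Among the other members Plat fell slightly, and F3, Tfpi, Thbd, Procr and Vwf were not called. All 9 genes passed the filter on low counts. In all, 2 of the 9 were higher and 2 lower, where 7.56% of the 19549 genes tested were called higher and 6.83% lower (14.4% in either direction). The median log2 fold change over the 9 was -0.03, beside -0.0092 over all genes tested.

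**Figure D1:**
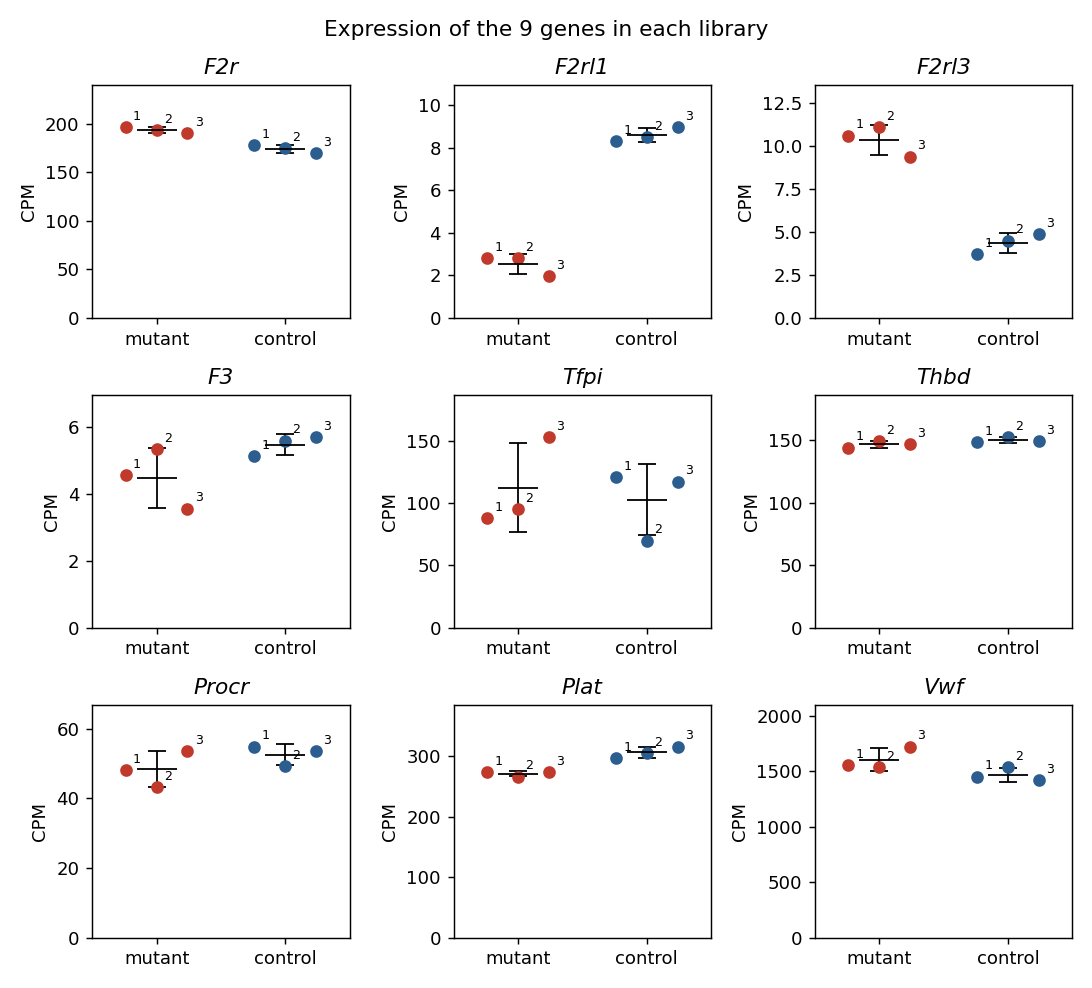
Expression in CPM (y axis, from 0) of each of the 9 genes in the 3 mutant (red, left) and 3 control (blue, right) libraries, numbered by replicate, with the mean as a horizontal line and the SD as bars. The 2 groups are far apart for F2rl1 and F2rl3, narrowly apart for F2r and Plat, and overlap for the other genes, with Tfpi the most scattered within both groups.

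F2rl1 (ENSMUSG00000021678; chromosome 13, 95511732 to 95525227, minus strand, GRCm38) encodes PAR2. It had 2.82, 2.83 and 1.98 CPM in mutant libraries 1, 2 and 3, against 8.33, 8.52 and 8.99 CPM in the control libraries. Every mutant library was thus under a level of 3 CPM and every control library above 8 CPM. These values rest on about 58, 55 and 37 read pairs in mutant libraries and 165, 174 and 184 in control libraries. This gave a log2 fold change of -1.76 ± 0.157 SE (95% interval -2.12 to -1.39, adjusted p = 0.000341). Without mutant library 3, the lowest of the 6, it was -1.60 (adjusted p = 0.000368). By size of change F2rl1 stood at place 276 among the 19549 genes. Several marker lists were lower beside it: 5 of 8 capillary markers were called lower and 2 higher, with a sum of 12670 to 14420 CPM in mutant and 18260 to 18860 CPM in control libraries, and 4 of 10 fibroblast markers were called lower, with a sum of 625.5 to 827.6 CPM in mutant and 972 to 1090 CPM in control libraries. Of 11 pericyte and smooth muscle markers 4 were called higher and 5 lower, with a sum of 4079 to 4172 CPM in mutant and 3979 to 4083 CPM in control libraries. The contractile genes Acta2 (0.401-fold), Myh11 (0.492-fold), Tagln (0.445-fold) and Cnn1 (0.279-fold) were among the lower ones. The pericyte genes Kcnj8 (1.41-fold) and Abcc9 (1.43-fold) were among the higher ones, but Vtn, also a pericyte marker, was lower (0.88-fold). The part of these lists in the levels of F2rl1 and the other called members was not tested.

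F2rl3 (ENSMUSG00000050147; chromosome 8, 72761880 to 72763874, plus strand) encodes PAR4, a thrombin receptor best known from platelets. It had 10.6, 11.1 and 9.40 CPM in mutant libraries, against 3.70, 4.50 and 4.88 CPM in control libraries. The lowest mutant library was well above the highest control library. The log2 fold change was 1.25 ± 0.133 (95% interval 0.94 to 1.56, adjusted p = 0.000751), and 1.32 without mutant library 3 (adjusted p = 0.0019). Of 10 platelet and megakaryocyte markers, 9 were tested and none was called beside it, and their summed level was 15.6 to 18.2 CPM in mutant and 14.3 to 20.6 CPM in control libraries. The platelet chemokine gene Pf4 had 5.59 ± 0.95 CPM in mutant and 5.25 ± 1.28 CPM in control libraries (SD, n = 3), and the integrin gene Itga2b 5.38 ± 0.202 CPM in mutant and 5.95 ± 0.502 CPM in control libraries. The members of this list did not all go one way: Clec1b, a platelet lectin receptor, was higher with no overlap, at 3.28, 3.18 and 2.85 CPM in mutant and 2.15, 1.48 and 2.53 CPM in control libraries (log2 fold change 0.60, adjusted p = 0.116). Groups did not overlap for 34.1% of all genes tested. Ppbp (-1.73), Gp9 (-1.01) and Tubb1 (-1.22) had negative log2 fold changes with overlapping groups, and the median over the 9 was -0.19. The part of platelet RNA in the level of F2rl3 was not tested.

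F2r (ENSMUSG00000048376; chromosome 13, 95601803 to 95618487, minus strand) encodes PAR1, the main thrombin receptor of endothelium. It had 196.8, 193.7 and 190.8 CPM in mutant libraries, against 178.2, 175.1 and 169.6 CPM in control libraries. The groups did not overlap, as was the case for 34.1% of all genes tested. The change was small, with a log2 fold change of 0.15 ± 0.034 (95% interval 0.07 to 0.23, adjusted p = 0.0228), and 0.17 without mutant library 3 (adjusted p = 0.0256). With 1 library left out the adjusted p was above 0.05 in 4 of 6 cases: it was 0.0813 and 0.0674 without mutant library 1 or 2, and 0.0641 and 0.0671 without control library 2 or 3.

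F2rl2, which encodes PAR3, a thrombin-binding cofactor of PAR4 on mouse platelets, is the remaining gene of the family. It was near the limit of detection, with 0.49, 0.37 and 0.31 CPM in mutant and 0.21, 0.18 and 0.20 CPM in control libraries, and was not called (log2 fold change 0.98 ± 0.426, adjusted p = 0.194). Scaled by exon length, F2r made up 90.2% ± 0.807 of the RNA of the 4 receptors in mutant and 90.6% ± 0.858 in control libraries (SD, n = 3). The share of F2rl3 was 8.07% ± 0.547 in mutant and 3.80% ± 0.577 in control libraries, and that of F2rl1 was 1.44% ± 0.248 in mutant and 5.45% ± 0.301 in control libraries. The level of F2rl3 over that of F2rl1, per length, was 5.16, 5.40 and 6.51 in mutant libraries, against 0.611, 0.725 and 0.747 in control libraries. F2rl3 was thus the more abundant of the pair in each mutant library and F2rl1 in each control library. The summed level of the 4 receptors was 64.4 ± 1.45 CPM per kb in mutant and 57.7 ± 0.899 CPM per kb in control libraries. These shares and ratios were not tested.

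F2rl1 and F2r lie near each other on chromosome 13, 76.6 kb apart on the same strand, with F2rl2 beyond F2r inside the gene body of Iqgap2. Other genes tested within 200 kb of the pair were Zbed3, Aggf1 and Iqgap2. None of the 3 was called, with log2 fold changes of -0.05, -0.04 and -0.15 (adjusted p 0.847, 0.753 and 0.350).

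Promoter windows of 300 bases, from 250 before to 50 after the start in RefSeq (GRCm38.p6), were listed for 5 of the 9 genes, among them both receptors that rose. Those of F2r (chr13:95618417-95618716, minus strand) and F2rl3 (chr8:72761409-72761708, plus strand) are shown because these receptors share thrombin as their protease and changed the same way. Both strands were searched for TGGGAA and GTGGGAA (Rbpj, the shorter lying inside the longer), CCCACCC (Klf factors), TGANTCA (AP-1), and ACGTG and GCGTG (hypoxia-inducible factors). Matches are in capitals, as read on the strand of the gene.
F2r: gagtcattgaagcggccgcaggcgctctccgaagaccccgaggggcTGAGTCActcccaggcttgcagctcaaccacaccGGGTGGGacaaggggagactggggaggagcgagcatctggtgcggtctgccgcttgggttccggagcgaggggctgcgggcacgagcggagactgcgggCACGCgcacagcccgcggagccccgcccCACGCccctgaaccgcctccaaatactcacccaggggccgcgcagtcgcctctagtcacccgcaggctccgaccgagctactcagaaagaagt
F2rl3: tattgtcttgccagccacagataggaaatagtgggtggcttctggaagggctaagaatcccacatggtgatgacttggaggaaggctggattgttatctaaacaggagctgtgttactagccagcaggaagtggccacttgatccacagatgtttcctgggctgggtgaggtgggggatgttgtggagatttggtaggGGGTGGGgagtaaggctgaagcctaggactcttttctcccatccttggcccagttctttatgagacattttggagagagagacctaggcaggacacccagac

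The F2r window, with 68.7% G and C, held 1 AP-1 match at -204, 1 Klf match at -170 and GCGTG on the opposite strand at -71 and -43, counted from the start. That of F2rl3, with 51.3% G and C, held 1 Klf match at -52. The F2rl3 window ends at 72761708, before the GENCODE gene start of 72761880 given above. Its positions thus count from a RefSeq start that lies upstream of the GENCODE gene. Of 32851 windows of this length in the table, 17.5% held CCCACCC, 7.81% TGANTCA, 32.4% GCGTG and 19.6% ACGTG, so the shared match is a common one. The letters TGGGAA, which 25.6% of windows held, and GTGGGAA, which 6.38% held, are in neither of these windows. Among the windows not shown, those of F3, Procr and Tfpi, a window of Tfpi held TGGGAA on the opposite strand at -76. No window was listed for F2rl1, Plat, Thbd or Vwf, so these genes were not searched. A match is a description of letters and not a bound site, and the windows bear on nothing farther from the start.

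Among the genes that act with the receptors, some G protein subunits rose slightly and 2 proteases that can cut the receptors fell. Counts of called genes in this and later lists stand beside 14.4% called in either direction over all genes tested. Gnai2, the most abundant, had 1891 ± 67.5 CPM in mutant and 1500.0 ± 27.0 CPM in control libraries (SD, n = 3; log2 fold change 0.33 ± 0.035, adjusted p = 0.000701). Gna12 (0.18 ± 0.032, adjusted p = 0.00904) and Gna13 (0.17 ± 0.037, adjusted p = 0.0200) were also called higher, so that 3 of 7 G protein and arrestin genes rose and none fell, with a median of 0.17. Unlabelled values in parentheses here and in later paragraphs are log2 fold changes ± SE. Both overlap exons of a gene on the opposite strand. Gna13 lost its call without mutant library 2, control library 2 or control library 3 (adjusted p 0.0714, 0.0552 and 0.0601). Gnaq, the subunit behind calcium release, had 102.9 ± 5.52 CPM in mutant and 112.8 ± 2.97 CPM in control libraries and was not called (-0.13, adjusted p = 0.117). Of 6 proteases known to cut protease-activated receptors 4 were tested and 2 fell, with a median over the 4 of -0.007. St14 (matriptase, a membrane serine protease) had 7.10 ± 0.367 CPM in mutant and 11.5 ± 0.672 CPM in control libraries (-0.69 ± 0.090, adjusted p = 0.00216). Klk8, a kallikrein known from neurons, had 10.3 ± 0.507 CPM in mutant and 15.6 ± 0.872 CPM in control libraries (-0.60 ± 0.080, adjusted p = 0.00246), and overlaps an opposite-strand gene.

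Tissue factor and its inhibitor were not called. F3 (ENSMUSG00000028128; chromosome 3, 121723537 to 121735048, plus strand) had 4.56, 5.34 and 3.56 CPM in mutant libraries, against 5.13, 5.60 and 5.71 CPM in control libraries. Mutant libraries 1 and 3 lay below every control library, while mutant library 2 lay among them. The log2 fold change was -0.29 ± 0.160 (95% interval -0.66 to 0.09, adjusted p = 0.312), and -0.14 without mutant library 3. In mouse brain F3 is known chiefly from astrocytes. The 12 astrocyte markers summed to 662.8 to 803.8 CPM in mutant and 972.8 to 1042 CPM in control libraries, with 3 called lower and none higher. Their part in the level of F3 was not tested.

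Tfpi (ENSMUSG00000027082; chromosome 2, 84432855 to 84476775, minus strand), with 10 annotated transcripts, was the most uneven of the 9 genes. It had 88.2, 95.1 and 153.1 CPM in mutant libraries, against 120.6, 69.9 and 117.2 CPM in control libraries. The highest library was 1.74 times the lowest within the mutant group and 1.72 times within the control group, though each value rests on at least 1430 read pairs. Among 4288 tested genes with a mean of at least 50 CPM, 84 (1.96%) had a ratio of 1.5 or more within both groups. The log2 fold change of 0.13 ± 0.333 had a 95% interval of -0.75 to 1.01 (adjusted p = 0.865), which spans 0.593-fold to 2.01-fold. It changed sign without mutant library 3 (-0.16) and without control library 2 (-0.08).

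Tfpi2, a related inhibitor of plasmin and of the tissue factor complex that is secreted into the matrix, did rise. It had 17.0, 16.2 and 15.1 CPM in mutant libraries, against 6.63, 6.30 and 6.37 CPM in control libraries. All 3 mutant libraries stood more than 2-fold above all 3 control libraries (log2 fold change 1.32 ± 0.082, adjusted p = 6.57e-05).

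The thrombomodulin and protein C receptor genes, whose products both serve the activation of protein C by thrombin, were not called. Thbd (ENSMUSG00000074743; chromosome 2, 148404466 to 148408188, minus strand), a gene of 1 exon, had 143.9, 148.9 and 146.8 CPM in mutant libraries, against 148.1, 152.6 and 149.4 CPM in control libraries. The groups overlapped, and the log2 fold change of -0.03 ± 0.033 had a 95% interval of -0.11 to 0.04 (adjusted p = 0.580). As a fold this interval was 0.926 to 1.03. Procr (ENSMUSG00000027611; chromosome 2, 155751117 to 155755471, plus strand) had 48.1, 43.3 and 53.6 CPM in mutant libraries, against 54.9, 49.2 and 53.7 CPM in control libraries. Its log2 fold change was -0.12 ± 0.083 (95% interval -0.32 to 0.07, adjusted p = 0.416).

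Genes of the list of other anticoagulants moved in both directions: 10 of 14 listed were tested, and 2 rose and 4 fell (median -0.12). Gas6, a vitamin K-dependent ligand of the Axl family of receptors, is in this list but is not an inhibitor of clotting. It fell to 119.0 ± 4.62 CPM in mutant libraries, against 212.0 ± 1.59 CPM in control libraries (-0.83 ± 0.038, adjusted p = 1.86e-05). Gas6 overlaps a gene on the opposite strand by 34 bases. Hs3st1, which makes the heparan sulphate that binds antithrombin, had 23.4, 23.4 and 22.9 CPM in mutant and 39.0, 38.5 and 39.6 CPM in control libraries (-0.75 ± 0.048, adjusted p = 7.07e-05). Entpd1 (CD39), which breaks down extracellular ATP and ADP and so restrains platelets, had 111.0 ± 5.25 CPM in mutant and 179.4 ± 14.5 CPM in control libraries (-0.69 ± 0.065, adjusted p = 0.000406). With Tfpi2, the gene Anxa5 (annexin A5, which covers exposed phosphatidylserine) was higher (0.46), and the thrombin inhibitor Serpine2 was the fourth lower gene (-0.51); these 2 genes were named after their values were seen. Entpd1 is also known from microglia, and 8 of 11 microglia and macrophage markers were called lower, with a summed level of 1235 to 1287 CPM in mutant and 1558 to 1602 CPM in control libraries. Their part in the fall of Entpd1 was not tested.

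Most clotting factors are made in liver, and 9 of 16 listed genes did not pass the filter on low counts. Of the 7 tested 1 was called, where 14.4% of all genes tested were called. This was F5 (factor V, the cofactor of factor Xa), with 14.8 ± 1.18 CPM in mutant and 20.0 ± 1.47 CPM in control libraries (-0.43 ± 0.088, adjusted p = 0.0162). Its adjusted p was 0.0574 and 0.0538 without mutant library 1 or 3, and 0.0571 and 0.0626 without control library 1 or 2, and it overlaps an opposite-strand gene. Of the 5 genes of the vitamin K cycle and of factor export, Mcfd2, which carries factors V and VIII out of the endoplasmic reticulum, was the 1 called, at 73.0 ± 5.23 CPM in mutant and 101.0 ± 11.97 CPM in control libraries (-0.47 ± 0.096, adjusted p = 0.0216). Mcfd2 lost its call without any 1 of the mutant libraries or control library 1 (adjusted p 0.0589 to 0.0809).

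**Figure D2:**
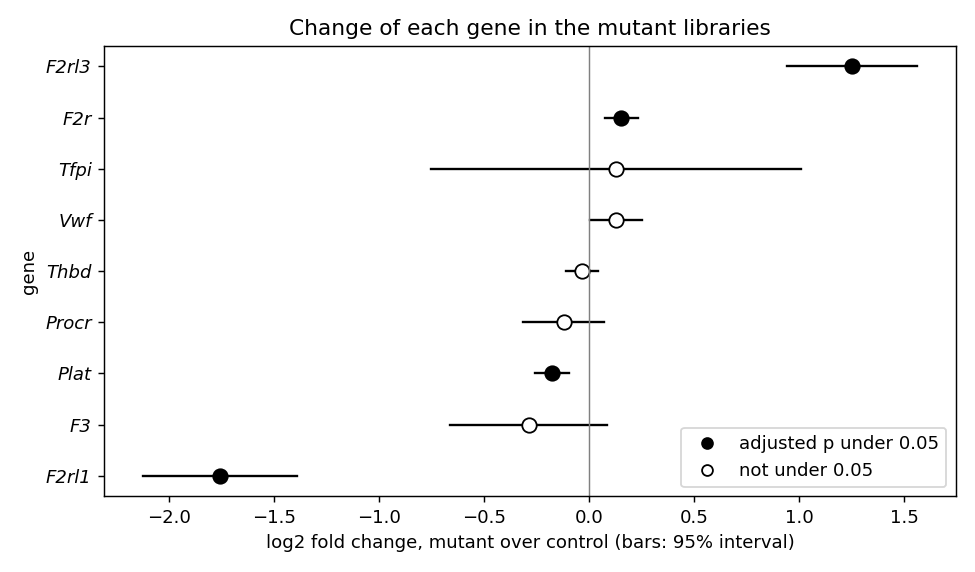
Log2 fold change, mutant over control (x axis), of each of the 9 genes (y axis), with 95% intervals from edgeR's quasi-likelihood fit as bars and genes with an adjusted p under 0.05 as filled points. F2rl3 and F2rl1 stand far to opposite sides, F2r and Plat lie close to 0 with short bars, and Tfpi has the widest interval.

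Plat fell slightly, while the genes of the other plasminogen activator, urokinase, and of its receptor rose. Plat (ENSMUSG00000031538; chromosome 8, 22757727 to 22782844, plus strand) had 273.2, 266.4 and 273.4 CPM in mutant libraries, against 297.3, 305.5 and 315.8 CPM in control libraries. No mutant library reached the lowest control library, and 34.1% of all genes tested likewise had no overlap between groups. The log2 fold change was -0.18 ± 0.034 (95% interval -0.26 to -0.10, adjusted p = 0.0130), and -0.18 without mutant library 3 (adjusted p = 0.0259). Its adjusted p was 0.0715 without mutant library 2 and 0.0603 without control library 2. Arterial markers, all 11 of which were called lower, summed to 1393 to 1440 CPM in mutant and 2445 to 2496 CPM in control libraries, and their part in the levels of Plat and of F2rl1 was not tested.

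Of 13 other genes in the fibrinolysis list 10 were tested, 5 rose and none fell, with a median of 0.32. The list holds genes that act for and against fibrinolysis, so the count gives no direction for the process. Plaur, the receptor that holds urokinase at the cell surface, had 68.9, 75.1 and 73.4 CPM in mutant libraries, against 28.5, 28.7 and 27.9 CPM in control libraries (1.35 ± 0.048, adjusted p = 6.92e-06). Plaur was more than 2-fold higher in every mutant library than in any control library. Anxa2, whose product annexin A2 binds tissue plasminogen activator and plasminogen on endothelium, had 688.7 ± 15.2 CPM in mutant and 446.7 ± 16.1 CPM in control libraries (0.62 ± 0.037, adjusted p = 5.40e-05), and overlaps an opposite-strand gene by 98 bases. Cd109, a membrane protease inhibitor related to alpha-2-macroglobulin, had 55.2 ± 1.04 CPM in mutant and 35.2 ± 2.56 CPM in control libraries (0.65 ± 0.061, adjusted p = 0.000419). Plau, which encodes urokinase, had 14.4, 14.6 and 12.7 CPM in mutant libraries, against 9.73, 9.68 and 9.28 CPM in control libraries (0.54 ± 0.086, adjusted p = 0.00535). The other higher gene, named after its values were seen, was the low-level Serpinb2, which encodes a serpin that inhibits urokinase. It had 1.03 ± 0.328 CPM in mutant and 0.218 ± 0.104 CPM in control libraries (adjusted p = 0.0163). Serpinb2 shares 291 bases of exon with Serpinb10 on its own strand. Serpinb10 had 0, 0 and 0 counts in mutant and 41, 27 and 0 in control libraries. The part of this overlap in the level of Serpinb2 was not tested. Serpinb2 lost its call without mutant library 1 (adjusted p = 0.0637) or control library 1 (0.0545). S100a10, the partner of annexin A2, had 14.0 ± 1.60 CPM in mutant and 12.9 ± 0.595 CPM in control libraries (adjusted p = 0.562).

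Set side by side per length, the level of Plat over that of Plau was 7.43 ± 0.67 in mutant and 12.2 ± 0.679 in control libraries (SD, n = 3), and this ratio was not tested. The gene for plasminogen, the substrate of both activators, had no count in any library.

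**Figure D3:**
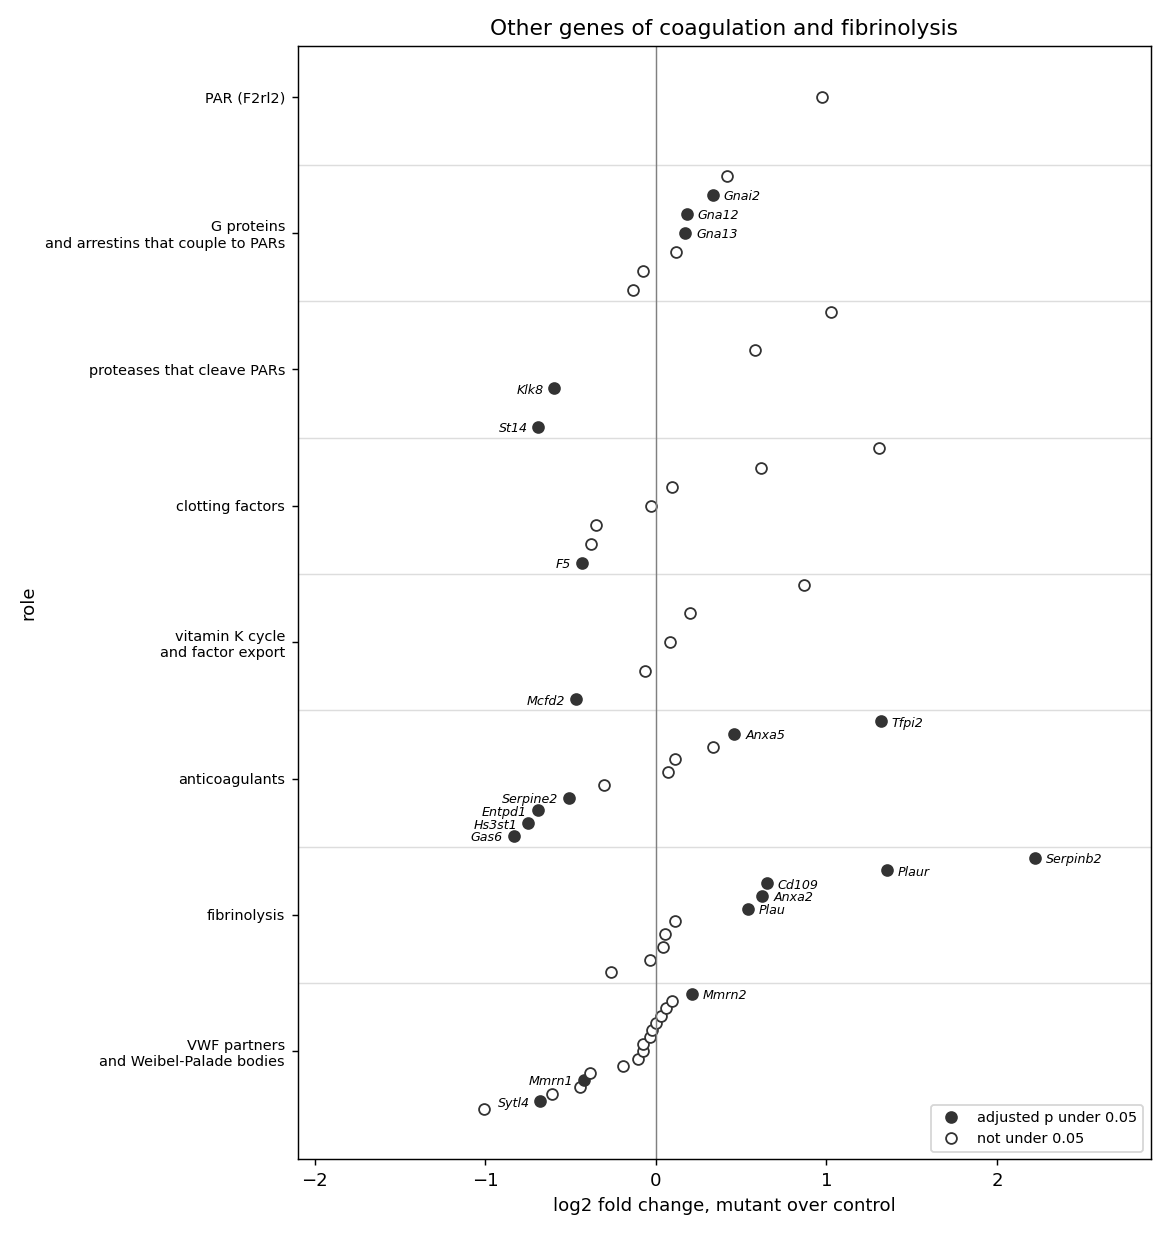
Log2 fold change, mutant over control (x axis), of 61 tested genes of coagulation and fibrinolysis other than the 9 members, by role (y axis), with called genes filled and named. The 5 called genes shown of the fibrinolysis list lie on the higher side, called genes of the anticoagulant list on both sides, and genes of von Willebrand factor partners mostly near 0.

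Vwf (ENSMUSG00000001930; chromosome 6, 125546774 to 125686679, plus strand) was the most abundant member. It had 1554, 1537 and 1722 CPM in mutant libraries, against 1451, 1540 and 1418 CPM in control libraries. Mutant library 3 was the highest, and control library 2 lay within the range of the mutant group. The log2 fold change was 0.13 ± 0.053 (95% interval 0.003 to 0.25, adjusted p = 0.176), and 0.08 without mutant library 3 (adjusted p = 0.271). Of 10 venous markers, from vessels in which Vwf is known to be high, 1 was called higher and 3 lower, with a median log2 fold change of -0.16. Their sum was 3714 to 3944 CPM in mutant and 3415 to 3645 CPM in control libraries, of which Tmsb10, the higher one, made up 2457 CPM on average in mutant and 1721 CPM in control libraries. The lower ones were Slc38a5, Vcam1 and Ctsc. Their part in the level of Vwf was not tested. Of 18 genes in the list of partners and Weibel-Palade bodies 17 were tested, 1 rose and 2 fell, with a median of -0.08. Over all genes tested 14.4% were called. The list is wider than its name, as it also holds Adamts2 and Mmrn2, whose products act in the matrix. Mmrn2, an endothelial matrix protein of the multimerin family, was higher at 463.1 ± 18.0 CPM in mutant and 400.5 ± 5.01 CPM in control libraries (0.21 ± 0.037, adjusted p = 0.00806). Its relative Mmrn1, which binds factor V, was lower at 75.7 ± 2.58 CPM in mutant and 101.5 ± 1.46 CPM in control libraries (-0.42 ± 0.039, adjusted p = 0.000399). Sytl4 (granuphilin), a granule protein that promotes release of von Willebrand factor, fell to 5.84 ± 0.319 CPM in mutant libraries, against 9.34 ± 0.405 CPM in control libraries (-0.68 ± 0.093, adjusted p = 0.00271). Selp, the P-selectin stored in the same granules, had 3.81 ± 0.532 CPM in mutant and 4.01 ± 0.556 CPM in control libraries (adjusted p = 0.829).

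Per length of exon, the 9 genes kept much the same order in both groups except at the low end. Vwf was highest, at 99.9 ± 6.36 CPM per kb in mutant and 91.5 ± 3.92 CPM per kb in control libraries. F2r followed at 58.1 ± 0.901 in mutant and 52.2 ± 1.296 in control libraries, then Plat at 43.4 ± 0.632 in mutant and 49.1 ± 1.48 in control libraries. Thbd was at 39.4 ± 0.675 in mutant and 40.3 ± 0.626 in control libraries. Next came Procr, at 23.8 ± 2.54 in mutant and 25.9 ± 1.46 in control libraries, and Tfpi, at 20.5 ± 6.53 in mutant and 18.8 ± 5.19 in control libraries, which overlapped Procr in the mutant group. In mutant libraries F2rl3 came seventh at 5.20 ± 0.444, F3 eighth at 1.78 ± 0.353 and F2rl1 ninth at 0.929 ± 0.177 CPM per kb. In control libraries F2rl1 came seventh at 3.14 ± 0.123, ahead of F2rl3 at 2.19 ± 0.302 and F3 at 2.17 ± 0.123 CPM per kb, and the ranges of F2rl3 and F3 overlapped. No other neighbours in either order overlapped. Control libraries of F2r and Plat were barely apart, the lowest of F2r at 50.9 and the highest of Plat at 50.6 CPM per kb. With the longest transcript as length, Plat stood above F2r in both groups and F3 above F2rl3 in control libraries.

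**Figure D4:**
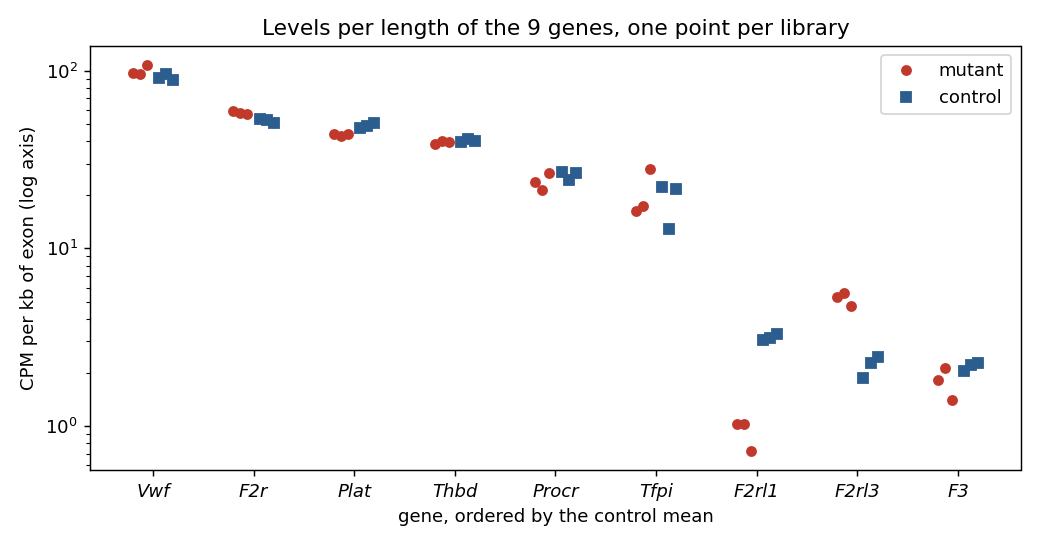
Level per length (CPM per kb of exon, log axis) of each gene in every mutant (red circles) and control (blue squares) library, with genes ordered by the control mean. Vwf is on top at 88.3 to 107.2 CPM per kb, and F2rl1 and F2rl3 change places between the groups.

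The genes whose profile over the 6 libraries was nearest to that of F2rl1, by root mean square distance of centred log2 CPM among 11730 genes with a mean of at least 5 CPM, were Npr3 (distance 0.132), Rnasek (0.139) and Lama1 (0.144). Npr3, a clearance receptor for natriuretic peptides, had 10.2 ± 0.462 CPM in mutant and 29.6 ± 1.04 CPM in control libraries, and Lama1, a laminin chain, 56.9 ± 3.08 CPM in mutant and 159.8 ± 4.98 CPM in control libraries (SD, n = 3). Exons of Rnasek overlap those of Gm21988 on the same strand, and those of Npr3 overlap Gm5144 on the opposite strand. Nearest to F2rl3 were Mlkl (0.0733), the effector of necroptosis, the antiviral gene Rsad2 (0.0933) and the cannabinoid receptor gene Cnr2 (0.0933). Mlkl had 25.0 ± 0.84 CPM in mutant and 11.5 ± 1.07 CPM in control libraries, and Cnr2 15.7 ± 0.401 CPM in mutant and 6.94 ± 0.577 CPM in control libraries. The 6 libraries form 2 groups, so genes near a member share a group difference of similar size.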

How the data were processed

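Poly(A) RNA of 6 samples was sequenced with strand-specific libraries, per the labels. Gene-level estimated counts were deposited. They are whole numbers and not normalized, so rounding changed nothing. Per the submitters' processing notes, the tools were HISAT2 and StringTie 1.3.4, with cutadapt 1.10, FastQC 0.10.1 and edgeR, and the build was GRCm39. The sources used here do not say whether strand entered the counting. The deposited read table gives counts of valid reads per library, 50226902 to 53986268. A count of 4 was seen for 1118 to 1190 genes in a library and a count of 5 for 171 to 189, so about 4 counts stand for 1 read pair and precision follows read pairs. All 55450 identifiers matched GENCODE release M21 (GRCm38), which gave symbols and coordinates.

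Genes were kept with filterByExpr (19549 genes), scaled by TMM (factors 0.978 to 1.009) and compared with the robust quasi-likelihood F test of edgeR 4.0.16 (R 4.3.3), with a single term for group and Benjamini-Hochberg adjustment over all genes tested. The SE is the log2 fold change over the square root of F. The test was checked on simulated data. Length is the union of annotated exons. Alternatives used RLE or no scaling, other filters, DESeq2 1.42.0, limma-voom (limma 3.58.1), counts divided by 4, the replicate number as a term, and each library left out. Each library was counted as 1 replicate. No pair of libraries agreed within sampling noise (median chi-square 1.79 to 2.69 times expectation within groups, 5.29 to 6.08 between). This check cannot tell separate pools from separate preparations of 1 pool, as both can differ by more than sampling noise.

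The members and gene lists were chosen with earlier results of these data known. Besides the 9 members, the text names every called gene of a role list, or the 4 with the largest change (mean of at least 1 CPM) where more were called, the 3 genes nearest to the 2 members with the largest change, and Rbpj. A planned gene of the fibrinolysis list is not reported here, and the counts of that list leave it out. Gnaq, S100a10, Selp, Plg, the single marker genes of other cells and the neighbours on chromosome 13 were named after their values were seen. The plan had assumed raw counts; the same test was applied to the estimates.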

Additional observations from a re-analysis of the deposited data

How the results depend on the processing

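F2rl1 and F2rl3 kept their direction and call under all 14 alternatives, with log2 fold changes of -1.84 to -1.60 for F2rl1 and 1.15 to 1.34 for F2rl3. F2r kept its call under 9 of 14 alternatives and Plat under 12 of 14, with log2 fold changes of 0.13 to 0.17 for F2r and -0.19 to -0.15 for Plat. No alternative called F3 (adjusted p 0.161 to 0.587 over 13 alternatives, the filter at 5 CPM leaving it out), Thbd (0.447 to 0.880), Procr (0.149 to 0.815), Tfpi (0.756 to 0.923) or Vwf (0.126 to 0.378). Members called higher numbered 1 to 2, and members called lower 1 to 2, with 1 library left out. All genes called lower numbered 807 to 1125 with 1 library left out, with 807 and 861 without control library 1 or 2 and 865 without mutant library 2, against 1335 with all libraries; fewer libraries were then tested. Other pathway genes called higher numbered 10 to 12 and lower 8 to 12 over all alternatives. With the replicate block, F2r was not called (adjusted p = 0.0592), leaving 1 member higher. Same-numbered libraries did not deviate together (r of -0.0169, 0.011 and 0.0266 over 11738 genes), so no pairing by number was seen. With 3 libraries per group, this check could miss a small effect shared by same-numbered libraries. With the longest transcript as length, the level of Vwf was 181.6 in mutant and 166.4 CPM per kb in control libraries and that of Plat 67.0 in mutant and 75.8 in control libraries. No scaling moved the median of all genes by over 0.02 on the log2 scale. Precision at low level is limited by depth: F2rl1 rests on about 37 to 58 read pairs in mutant and 165 to 184 in control libraries.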

Other observations

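Beside Tfpi, other genes of the pathway had libraries far from the rest of their group, and their part in any result was not tested. Arrb1, an arrestin that desensitises G protein-coupled receptors, had 70.6, 68.8 and 70.2 CPM in mutant libraries, against 21.6, 70.2 and 65.2 CPM in control libraries, so that control library 1 stood alone. Vkorc1l1, a vitamin K reductase, had 48.6, 54.8 and 12.2 CPM in mutant libraries, against 2.89, 1.65 and 58.8 CPM in control libraries, which gives a log2 fold change of 0.87 ± 1.59 and no call (adjusted p = 0.803). F10 (factor X), a low-level gene whose values rest on few read pairs, had 1.29, 1.43 and 0.756 CPM in mutant libraries. In control libraries it had 0.278, 0.660 and 0.464 CPM. The F10 groups did not overlap, as was the case for 34.1% of all genes tested, and F10 was not called (adjusted p = 0.0725). These 3 genes were named after their values were seen.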
